A study of Mus musculus and Homo sapiens with 9 samples.

Results

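Of 13295 FLAG-MCM8 peaks on assembled human chromosomes in HEK293 cells, 10716 (80.6%, 95% Wilson interval 79.9% to 81.3%) overlapped no R-loop peak and no IgG peak, and these MCM8-only peaks are described here. They were chosen by measured values, since a peak was a member when it shared not even 1 bp with a peak of the S9.6 list, of the S9.6 list from cells transfected with a plasmid labelled RNH1, or of the IgG list. The remaining FLAG-MCM8 peaks fell into 1913 that overlapped an S9.6 peak of either kind but no IgG peak, called R-loop MCM8 peaks, and 666 that overlapped an IgG peak, called IgG-shared MCM8 peaks. Of the 1913, 513 overlapped only the S9.6 list without the plasmid, 430 only the RNH1 list and 970 both. The name R-loop MCM8 thus marks overlap with a listed peak and does not show that hybrids were present. The absence of overlap is the rule itself and is therefore not a finding.

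MCM8 is a helicase of the minichromosome maintenance family. It works in a complex with MCM9, with HROB as a partner, in homologous recombination and at stalled replication forks. R-loops form where RNA pairs with its template DNA and displaces the other strand, and they are common at GC-rich promoters of transcribed genes. S9.6 is an antibody raised against RNA-DNA hybrids, and RNase H1 is an enzyme that digests their RNA strand. CUT&Tag maps an antibody's target by tethering a transposase to it, which cuts and tags the DNA nearby.

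HEK293 is a human embryonic kidney cell line, and all 4 libraries came from cells labelled wildtype and grown in the same medium. They were stained with mouse IgG, with anti-FLAG after transfection with a FLAG-MCM8 plasmid, with S9.6, or with S9.6 after transfection with the RNH1 plasmid, by which the study means RNase H1. The anti-FLAG library therefore maps a tagged protein expressed from a plasmid, and the S9.6 libraries came from cells not labelled as carrying it. Each group held 1 library, so no p-value is given, a difference compares these libraries and not the conditions, and every interval covers counting error only. Mouse embryonic fibroblasts (MEFs) of the same study, Mcm8 wildtype, Mcm8 knockout, shControl and Ddx5 knockdown with S9.6 and wildtype without primary antibody, 1 library each, served only for a comparison of promoters.

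The 2 strongest MCM8-only peaks lay on coding exons of MCM8 itself, the gene carried by the transfected plasmid. The sequences below, from hg38 and the plus strand, show each peak with 15 bases on either side, and capitals mark the coding exon. Exon 15 (chr20:5984781-5985000) was covered by a peak at chr20:5984789-5985006, which began 8 bp inside the exon and ended 6 bp past it. Exon 16 (chr20:5985922-5986131) was covered by a peak at chr20:5985914-5986132, which began 8 bp before the exon and ended 1 bp after it.
MCM8 exon 15: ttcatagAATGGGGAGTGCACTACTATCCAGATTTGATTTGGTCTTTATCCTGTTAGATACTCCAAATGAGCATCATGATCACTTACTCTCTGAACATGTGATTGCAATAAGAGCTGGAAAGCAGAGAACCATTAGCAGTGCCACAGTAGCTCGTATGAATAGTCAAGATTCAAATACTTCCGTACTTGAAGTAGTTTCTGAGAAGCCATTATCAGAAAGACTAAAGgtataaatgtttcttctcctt
MCM8 exon 16: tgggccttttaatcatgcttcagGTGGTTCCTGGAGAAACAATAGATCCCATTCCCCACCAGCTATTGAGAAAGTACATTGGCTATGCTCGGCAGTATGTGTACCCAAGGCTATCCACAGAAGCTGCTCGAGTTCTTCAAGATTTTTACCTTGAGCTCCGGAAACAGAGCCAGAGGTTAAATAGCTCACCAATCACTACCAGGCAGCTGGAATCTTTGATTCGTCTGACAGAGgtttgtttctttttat

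These peaks had 5481 and 5060 fragments at the summit over local backgrounds of 495 fragments, while no other MCM8-only peak had more than 39. Their fold enrichments were 11.1 and 10.2, and their −log10 q values were 3556 and 3123. Another FLAG-MCM8 peak of the gene, at chr20:5967426-5968037, had 4218 fragments and a fold of 21.6, overlapped peaks of both S9.6 lists, and so was not a member. In these lists, fragments from the plasmid and from the chromosome cannot be told apart. Exon-shaped peaks were otherwise rare: of 336 MCM8-only peaks with the summit in a coding exon, 6 (1.79%, 0.821% to 3.84%) had both ends within 20 bp of coding exon edges, against 8 of 697 S9.6 peaks without FLAG-MCM8 (1.15%, 0.583% to 2.25%). The other 4, in HP, FCGRT, NUP210 and HMCN2, had 10 to 12 fragments each.

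The strongest members elsewhere differed widely in sequence. The sequences that follow span the summit and 50 bases on either side for 3 of the strongest members at promoters, for 2 members at promoters of replication and cell cycle genes, and, for contrast, for the R-loop MCM8 peaks at CDK4 and GMNN. All are hg38 plus strand, and capitals mark CG pairs, the CpG sites that are dense at many promoters.
GNB5 promoter, chr15:52135835-52135935: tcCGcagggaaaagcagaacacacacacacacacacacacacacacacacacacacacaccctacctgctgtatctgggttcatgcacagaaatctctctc
GRIP1 promoter, chr12:67068115-67068215: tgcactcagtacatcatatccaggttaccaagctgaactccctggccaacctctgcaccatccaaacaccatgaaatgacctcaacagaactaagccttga
PACSIN1 promoter, chr6:34485426-34485526: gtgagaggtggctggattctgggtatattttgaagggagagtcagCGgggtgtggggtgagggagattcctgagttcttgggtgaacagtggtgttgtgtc
CCNF promoter, chr16:2428936-2429036: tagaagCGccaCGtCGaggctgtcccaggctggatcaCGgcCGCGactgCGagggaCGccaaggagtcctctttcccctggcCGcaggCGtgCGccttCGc
POLD3 promoter, chr11:74494210-74494310: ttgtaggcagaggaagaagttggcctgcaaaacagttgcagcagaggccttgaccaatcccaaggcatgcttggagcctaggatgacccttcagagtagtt
CDK4 promoter (R-loop MCM8), chr12:57752575-57752675: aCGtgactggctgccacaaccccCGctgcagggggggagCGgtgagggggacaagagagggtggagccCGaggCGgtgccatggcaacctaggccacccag
GMNN promoter (R-loop MCM8), chr6:24775037-24775137: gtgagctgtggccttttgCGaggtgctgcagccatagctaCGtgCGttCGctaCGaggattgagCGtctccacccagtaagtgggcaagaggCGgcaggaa

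The GNB5 window held an uninterrupted CA repeat. GRIP1 and POLD3 had 0 CpGs, while the CCNF window held 12 in 69.3% GC, more than the 5 of CDK4 and the 7 of GMNN. Runs of 8 or more TG units, read on both strands, were nevertheless uncommon. In windows of the summit and 100 bp on either side, used from here on, they stood in 107 members (0.999%, 0.827% to 1.21%), against 0.608% of genome windows of the same length and 1.13% (0.976% to 1.3%) of IgG peaks without FLAG-MCM8.

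GNB5 encodes a G protein beta subunit, and the peak 134 bp upstream of its start site had 36 fragments and a fold of 13.1. Intronic peaks in LRIG2-DT, a divergent transcript, and in BTNL9, a butyrophilin-like gene, had 33 and 30 fragments with folds of 11.4 and 9.06. On the X chromosome an intronic peak with 23.9% GC had 30 fragments, and on chromosome 7 a peak between genes with 14.9% GC had 26. The last of the 10 strongest were peaks at the ATP8B1-AS1 promoter (27 fragments, fold 8.42) and in an intron of MBP, the myelin basic protein gene (26 fragments, fold 8.60). Below these, the strongest promoter peak was at GRIP1, a scaffold of glutamate receptors (23 fragments, fold 8.37), and the strongest coding exon peak outside MCM8 was in ZNF592, a zinc finger gene (20 fragments, fold 7.35). In other exons KHDC1 (22 fragments), a lncRNA gene on chromosome 1 (20) and PGA3, a pepsinogen gene with near-identical copies (25), led. Between genes, a peak on chromosome 16 followed the one on chromosome 7, with 25 fragments and a fold of 8.28.

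Most members were weak. The fold, which MACS2 computes as fragments at the summit plus 1 over local background plus 1, had a median of 4.62 (quartiles 4.27 and 5.27), against 4.98 (4.41 and 5.78) for R-loop MCM8 peaks. This median corresponds to 12 fragments over the lowest background of the list, 1.81, and 47.0% (46.0% to 47.9%) of members had that lowest background, against 23.1% (21.3% to 25.1%) of R-loop MCM8 peaks. Fragments at the summit had a median of 13 (quartiles 12 and 15) in members and 16 (14 and 20) in R-loop MCM8 peaks, and 5.03% of members against 26.3% of R-loop MCM8 peaks had at least 20. Members were also narrower, with a median width of 291 bp against 347 bp, and the part of width in the overlap rule was not tested. Only 25 members reached a fold of 8 and 155 (1.45%) a −log10 q of 10, while 220 R-loop MCM8 peaks (11.5%) reached that q.

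The weaker a FLAG-MCM8 peak, the more often it was MCM8-only. Among peaks of 10 or 11 fragments 93.5% (92.4% to 94.4%) were, among those of 14 or 15 it was 83.8% (82.5% to 85.1%), among those of 20 to 29 it was 46.5% (43.6% to 49.4%), and among those of 30 or more 15 of 172 (8.72%, 5.36% to 13.9%). The intervals of these bins do not overlap. A listed S9.6 peak had at least 11 fragments, a listed RNH1 peak at least 12 and a listed IgG peak at least 14, so fewer fragments of those libraries at a member left no peak: that a site is absent from the lists does not show that hybrids were absent.

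**Figure D1:**
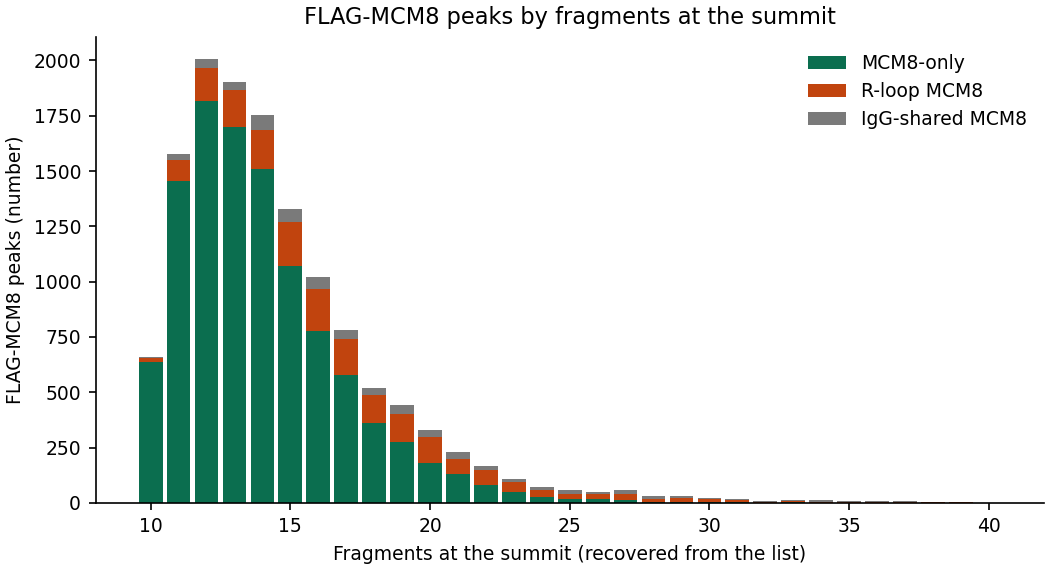
Number of FLAG-MCM8 peaks (vertical axis) by fragments at the summit (horizontal axis, shown from 10 to 40), stacked by class. MCM8-only peaks make up 635 of 661 peaks at 10 fragments and 182 of 330 at 20.

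MCM8-only peaks lay mainly in introns and between genes. By place, 5196 (48.5%) were in introns, 3480 (32.5%) between genes, 1561 (14.6%, 13.9% to 15.2%) at promoters, meaning with the midpoint within 1 kb of a transcription start site (TSS), 314 (2.93%) in other exons and 165 (1.54%) in coding exons. R-loop MCM8 peaks were at promoters in 59.2% (57.0% to 61.4%) of cases, a difference of 44.7 percentage points (42.3 to 46.9). With FLAG-MCM8 peaks split by −log10 p into 4 groups of about equal size, from weakest to strongest, promoters took 13.3%, 14.5%, 14.3% and 16.8% of members and 52.1%, 52.6%, 58.7% and 64.4% of R-loop MCM8 peaks, so the gap was present in all 4 groups. The classes are split by overlap with lists that are themselves rich in promoters. Even without FLAG-MCM8, promoters took 41.6% of S9.6 peaks and 40.7% of RNH1 peaks. A gap is therefore partly built into the rule in every group, and how much of it was not tested.

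The promoter share of members was closer to that of the IgG list than to that of the S9.6 list or of R-loop MCM8 peaks. IgG peaks without FLAG-MCM8 were at promoters in 9.83% (9.38% to 10.3%), in introns in 50.4% and between genes in 36.0%, while S9.6 peaks without FLAG-MCM8 were at promoters in 41.6% (40.8% to 42.5%). The promoter share of members was 4.74 points (3.94 to 5.55) above that of the IgG list, outside counting error. The median distance to a TSS was 9302 bp in members, 390 bp in R-loop MCM8 peaks and 12165 bp in IgG peaks without FLAG-MCM8.

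**Figure D2:**
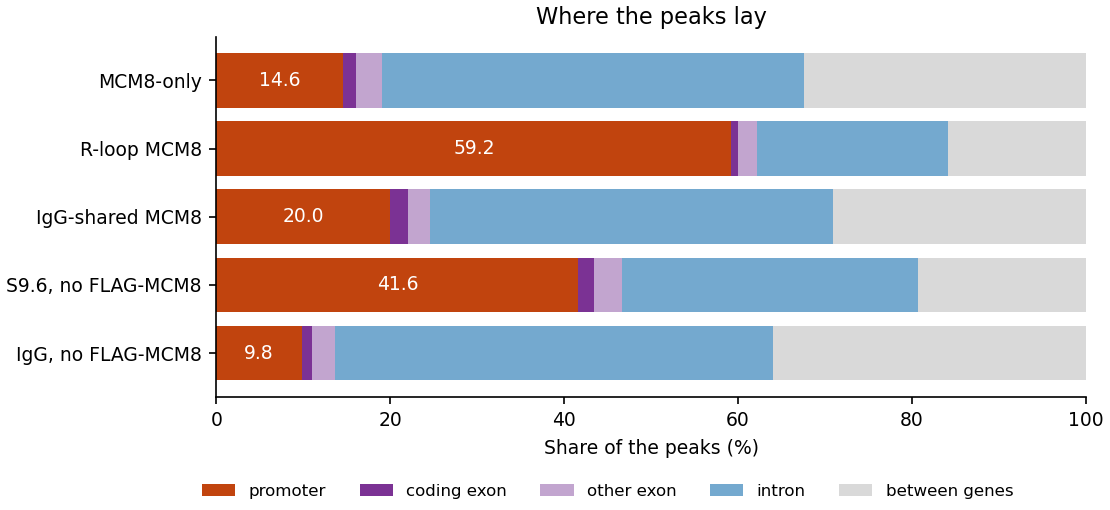
Share of peaks (horizontal axis, percent) in each place, for MCM8-only peaks, the other FLAG-MCM8 classes, and S9.6 and IgG peaks that overlap no FLAG-MCM8 peak, with the promoter share printed. Promoters take 14.6% of MCM8-only peaks and 59.2% of R-loop MCM8 peaks.

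The promoters of members also differed in kind. Of 1561, the nearest TSS belonged to a protein-coding gene in 1046 (67%, 64.6% to 69.3%), to a lncRNA gene in 294 (18.8%) and to a gene of another type in 221 (14.2%, 12.5% to 16%). For R-loop MCM8 peaks these shares were 79.0%, 16.2% and 4.85% (3.75% to 6.27%). The midpoint lay within 250 bp of the TSS in 625 promoter members (40.04%, 37.6% to 42.5%) and in 805 promoter R-loop MCM8 peaks (71.1%, 68.3% to 73.6%). The windows of promoter members had a median of 57.2% GC and 5 CpGs, against 64.2% and 14. R-loop MCM8 peaks lie on S9.6 or RNH1 peaks by definition, and the part of the rule in these contrasts was not tested.

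In sequence, members stood between the genome and the R-loop peaks. The median GC of the window was 50.2% (quartiles 43.8% and 56.7%) in members, 61.2% (54.2% and 67.2%) in R-loop MCM8 peaks, 58.7% in S9.6 peaks without FLAG-MCM8, 45.8% in IgG peaks without FLAG-MCM8 and 39.8% in 293744 genome windows placed every 10 kb. The rise was local: mean GC of members was 44.5% in the 100 bp centred 1950 bp before the summit and 50.3% next to it. CpG-island-like windows, with at least 50% GC and an observed to expected CpG ratio of at least 0.6, made up 5.53% (5.12% to 5.98%) of members and 42.3% (40.1% to 44.5%) of R-loop MCM8 peaks. They made up 28.0% of S9.6 and 25.9% of RNH1 peaks without FLAG-MCM8. R-loop MCM8 peaks overlap those lists by definition, and the part of the rule in these sequence contrasts was not tested. GC rose with strength, from a median of 48.3% in members of 10 to 13 fragments to 59.5% in the 70 members of 25 or more, and the IgG list rose likewise, from 42.3% at 14 or 15 fragments to 49.8% at 25 or more. At equal fragments members were higher. Their median was 51.2% at 14 or 15 fragments, 54.2% against 44.3% at 16 to 19, and 55.7% against 46.8% at 20 to 24.

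**Figure D3:**
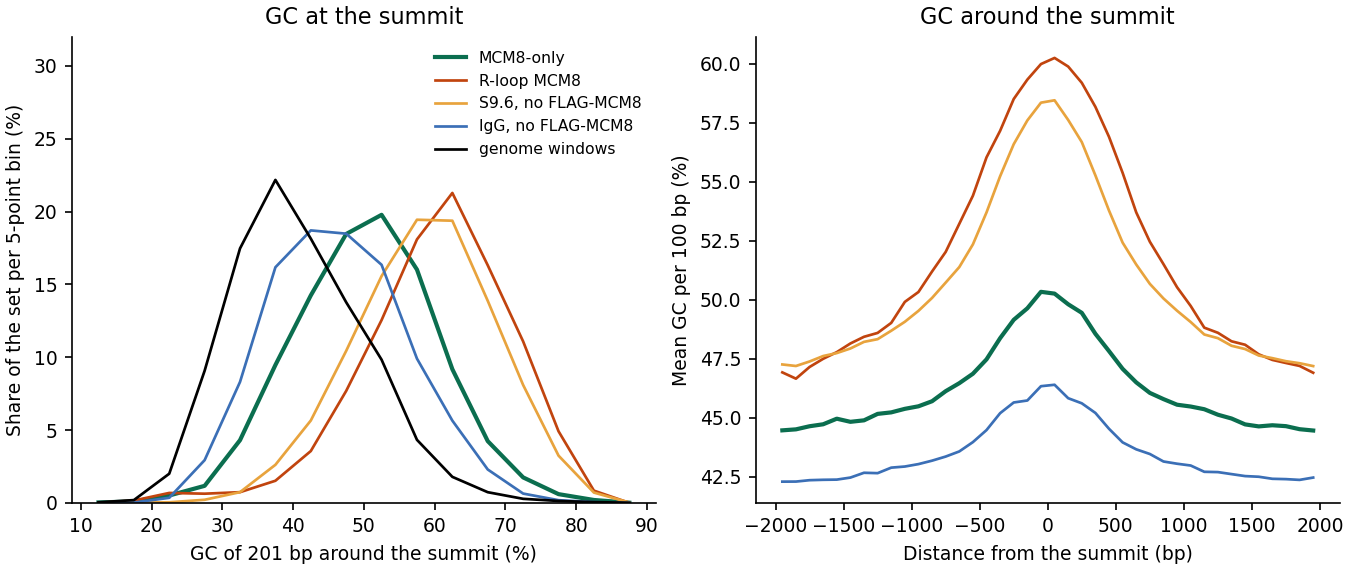
Left, share of each set (vertical axis, percent per 5-point bin) by GC of the summit and 100 bp on either side (horizontal axis, percent), and right, mean GC per 100 bp (vertical axis, percent) by distance from the summit (horizontal axis, bp). MCM8-only peaks, median 50.2%, lie between genome windows (39.8%) and R-loop MCM8 peaks (61.2%).

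G-quadruplexes are folded structures of guanine-rich DNA, and their pattern, 4 runs of at least 3 G with loops of 1 to 7 bases on either strand, was found in 5.97% (5.54% to 6.44%) of members, 16.8% (15.2% to 18.6%) of R-loop MCM8 peaks and 2.11% of genome windows. At equal GC the intervals of members and genome overlapped: of windows with 50% to 60% GC, 4.88% (4.24% to 5.60%) of members and 4.52% (4.32% to 4.72%) of genome windows held the pattern, and with 60% to 70% GC 18.7% (16.7% to 20.7%) and 19.5% (18.6% to 20.4%). R-loop MCM8 peaks had 19.5% (16.7% to 22.5%) at 60% to 70% GC, overlapping members. At 50% to 60% GC they had 7.68% (5.79% to 10.1%), above members. At 40% to 50% GC they had 1.86% (0.726% to 4.69%) and members 1.94% (1.53% to 2.45%). The GGGCGG letters bound by SP and KLF factors, searched on both strands, stood in 7.80% of members, 35.3% of R-loop MCM8 peaks and 2.85% of genome windows. At 50% to 60% GC they stood in 6.28% (5.56% to 7.1%) of members, 18.3% (15.3% to 21.6%) of R-loop MCM8 peaks and 7.66% (7.41% to 7.92%) of genome windows. At 60% to 70% GC the shares were 22.8% (20.7% to 25.1%), 43.1% (39.5% to 46.8%) and 23% (22.1% to 24%). In that range S9.6 and RNH1 peaks without FLAG-MCM8 had 35.1% and 32.6%, and the part of the rule in the contrast was not tested.

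**Figure D4:**
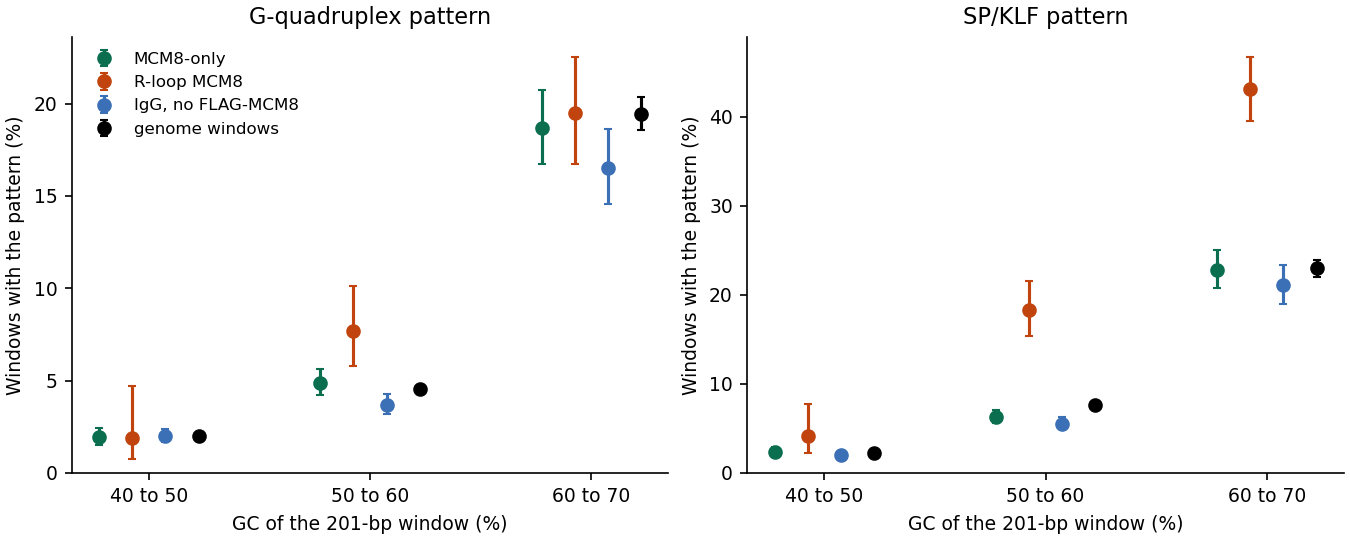
Share of summit windows with a G-quadruplex pattern (left) or an SP/KLF pattern (right) on the vertical axes, in percent, by GC range of the window on the horizontal axes, where points are shares and bars are 95% Wilson intervals. At 60% to 70% GC the SP/KLF pattern stands in 22.8% of MCM8-only windows, 23% of genome windows and 43.1% of R-loop MCM8 windows.

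A further 12 patterns were searched on both strands. The E-box CACGTG was in 3.46% (3.13% to 3.83%) of members and 1.89% of genome windows, and at 50% to 60% GC in 4.07% (3.49% to 4.74%) and 3.43% (3.25% to 3.6%). With each site counted on both strands, 441 of its matches in members were centred within 50 bp of the summit and 357 beyond. In IgG peaks without FLAG-MCM8 these counts were 557 and 491. The window has fewer positions for a match beyond 50 bp than within, and no interval was computed. Over all windows TATAAA, the letters of the TATA box, stood in 9.35% of members and 21.4% of genome windows, CCAAT, bound by NFY, in 22.7% and 27.2%, AGATAA, bound by GATA factors, in 7.79% and 14.5%, runs of 12 A in 1.73% and 4.38%, AP-1 (TGANTCA) in 5.86% and 6.21%, and TEAD (GGAATG) in 11.0% of both. ETS (CCGGAAG) stood in 1.13% and 0.447%, the NRF1 pattern in 0.159% and 0.0306%, the CTCF pattern in 0.261% and 0.104%, the CRE pattern in 0.0933% and 0.0732%, and 8 GA units in 0.131% and 0.18%.

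At 50% to 60% GC the SP/KLF letters were rarer in members than in genome windows, with intervals that did not overlap. Of the further patterns, counting the TG repeat, 4 also had intervals that did not overlap between members and genome. NFY stood in 20.3% (19.02% to 21.6%) of members, 17.9% (17.5% to 18.3%) of genome windows and 21.1% of IgG peaks without FLAG-MCM8. The TATA box letters stood in 2.37% (1.94% to 2.9%), 3.91% (3.73% to 4.1%) and 3.51%. Runs of 12 A stood in 0.965% (0.701% to 1.33%), 3.79% (3.61% to 3.98%) and 1.27%. The TG repeat stood in 1.04% (0.767% to 1.42%), 0.5% (0.437% to 0.573%) and 0.646%. The intervals for E-box, AP-1, TEAD, GATA factors, ETS, NRF1, CTCF, CRE and the GA repeat overlapped in that range. For CTCF they also did at 40% to 50% GC (0.0856% of members and 0.113% of genome windows) and at 60% to 70% GC (0.696% and 0.786%).

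Along the chromosomes, the density of members ranged from 1.62 peaks per Mb on chromosome 18 to 5.41 on chromosome 22, with 3.65 over the genome. Over the autosomes and X, 23 points from libraries of the same line, Pearson's r with the density of IgG peaks without FLAG-MCM8 was 0.95 (Spearman's rho 0.94), with S9.6 peaks without FLAG-MCM8 it was 0.84 (rho 0.87), and with R-loop MCM8 peaks it was 0.72 (rho 0.85). These describe points that share the line's karyotype, gene density and base composition, whose parts in the densities were not tested. The ratio of members to IgG peaks without FLAG-MCM8 ran from 0.475 on X to 0.793 on chromosome 17.

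**Figure D5:**
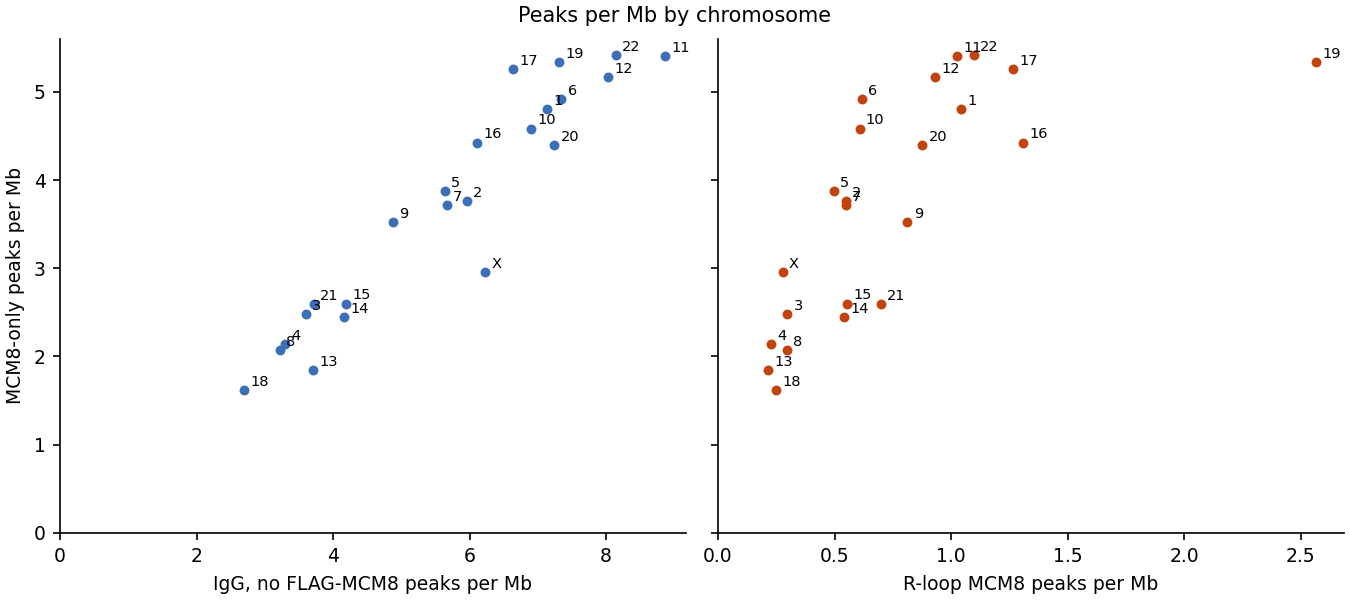
MCM8-only peaks per Mb (vertical axes) against IgG peaks without FLAG-MCM8 per Mb (left) and R-loop MCM8 peaks per Mb (right); each point is a chromosome, labelled by name. MCM8-only density runs from 1.62 on chromosome 18 to 5.41 on chromosome 22, with r = 0.95 on the left and 0.72 on the right.

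Members were spread widely. Of 3044 bins of 1 Mb, 2482 held at least 1, with a median of 3, and the median gap to the next member was 62294 bp. The 3 densest bins were on chromosome 9, at 135 to 136 Mb with 23 members, 136 to 137 Mb with 21 and 131 to 132 Mb with 20, a count that 133 to 134 Mb also reached. Those bins were also rich in S9.6 peaks without FLAG-MCM8, with 24, 59 and 25, and held 10, 12 and 13 IgG peaks without FLAG-MCM8. On X, the bin at 25 to 26 Mb held 17 members, 17 IgG peaks and 8 S9.6 peaks.

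Gaps to peaks of the other lists were measured after the rule had removed every overlap, and no expected spacing was computed. The median gap from a member was 51689 bp to an S9.6 peak, 67124 bp to an RNH1 peak and 41722 bp to an IgG peak. Some 793 members (7.4%, 6.92% to 7.91%) lay within 1 kb of a peak of another list and 166 within 100 bp. Promoter members had an S9.6 or RNH1 peak within 1 kb in 14.8% (13.1% to 16.6%) of cases and those in introns in 3.77% (3.29% to 4.33%). Members just inside the rule had 1 bp between them and another list, and 3 of them are named here. A peak in CHD4, a chromatin remodeller, lay beside an S9.6 peak (21 fragments). Peaks in ST8SIA1 and in a lncRNA gene on chromosome 1 lay beside IgG peaks (12 and 14 fragments). Among peaks just outside, 3 that shared 2 bp lay in CTTN with RNH1, between genes on chromosome 17 with S9.6, and between genes on chromosome 1 with IgG. They had 12, 13 and 14 fragments. The 96 members with a gap under 50 bp and the 141 excluded peaks that shared at most 50 bp both had a median fold of 4.62.

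Among 20007 protein-coding genes, 1150 (5.75%) had an MCM8-only peak within 1 kb of a TSS and 1220 (6.10%) an R-loop MCM8 peak. Of the 1150, 655 had no S9.6 or RNH1 peak at any of their promoters. Over all 20007 genes, 7459 (37.3%, 36.6% to 38.0%) had such a peak, so most genes at large lacked one too. Gene lists of the study's processes were read against that 5.75%. Promoter members were found at 6 of 57 replication genes (10.5%, 4.91% to 21.1%), 3 of 49 recombination and Fanconi genes (6.12%, 2.1% to 16.5%), 3 of 40 R-loop factors (7.5%, 2.58% to 19.9%), 4 of 62 cyclin, CDK and E2F genes (6.45%, 2.54% to 15.4%), 4 of 28 AP-1 and immediate-early genes (14.3%, 5.70% to 31.5%), 5 of 87 ribosomal protein genes (5.75%, 2.48% to 12.8%), 6 of 84 histone genes (7.14%, 3.31% to 14.7%) and 1 of 39 HOX genes (2.56%, 0.454% to 13.2%). All 8 intervals held 5.75%. With only 1 to 6 genes found per list the intervals were wide, so whether a list stood apart could not be decided.

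The replication genes were MCM2 and MCM4, subunits of the replicative helicase (11 and 12 fragments), CDC45, its activator (11), TIMELESS, a fork protection factor (17), RECQL4, a RecQ helicase (18), and POLD3, a subunit of DNA polymerase delta (18, fold 6.76). Of these, MCM2 and MCM4 had no S9.6 or RNH1 peak at any promoter, and the POLD3 member lay 193 bp from an S9.6 peak. The recombination genes were FANCL, the ubiquitin ligase of the Fanconi pathway (21 fragments, fold 7.82), BRCA1, with members of 14 and 12 fragments, and ERCC4, a nuclease subunit (10), and all 3 also had an S9.6 or RNH1 promoter peak. ADAR, an RNA-editing enzyme (17 fragments), DHX15, an RNA helicase (13), and SAMHD1, a nucleotide hydrolase (11), were the R-loop factors. The FANCL count lay above the 95th percentile of all members, 20, those of RECQL4, POLD3, TIMELESS and ADAR above the upper quartile, 15, and the others between 10, the lowest in the list, and 14.

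In the other lists the strongest members were at CCNF, which encodes cyclin F (28 fragments, fold 6.14), DUSP1, a phosphatase of MAP kinases (19), and MYC, a transcription factor (17, fold 6.40). BTG2 and KLF6 had 13 and 12. CDC25B had 16, CDK9 12 and CCNI 11. RPL41 had 16, RPSA 13, RPL36AL 12 and RPL5 11. Among histone genes, H2AC20, H2AC21 and H2BC21 shared 1 peak of 13 fragments, and H4C11 had 15. HOXA9 had 2 members of 12 fragments each, 1 of which lay 1 bp from an RNH1 peak. Outside MCM8 itself, the genes of the study's proteins gave few members: MCM9 had 1, in an intron (10 fragments, fold 3.70), and HROB, DDX5, DHX9, CDK4, GMNN and RNASEH1 had 0, while DDX5, CDK4 and GMNN had an R-loop MCM8 peak.

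Large genes at common fragile sites, where replication stress breaks chromosomes, held fewer members per Mb than the genome did. The 37 listed genes held 103 over 49.3 Mb, 2.09 per Mb against 3.65 over the genome and 2.69 in all 323 protein-coding genes of 500 kb or more. IgG peaks without FLAG-MCM8 were likewise sparser there, 4.10 against 5.62 and 4.82 per Mb. Among those with the most were RBFOX1, a splicing regulator, with 14, DLG2, a synaptic scaffold, with 8, PTPRD, a receptor phosphatase, with 7, and GMDS, a sugar-nucleotide enzyme, and SDK1, an adhesion protein, with 6 each. In that order these genes held 22, 25, 13, 8 and 5 IgG peaks without FLAG-MCM8 and 0 R-loop MCM8 peaks except 1 in SDK1. FHIT and WWOX, genes of widely studied fragile sites, held 2 each. Among all host genes PTPRN2, a receptor-type phosphatase gene, held the most members, 16, with 11 IgG peaks and 12 S9.6 peaks without FLAG-MCM8. Members were denser in short genes, with 8.36 per Mb in genes under 20 kb, where S9.6 peaks without FLAG-MCM8 reached 23.6 and IgG peaks without FLAG-MCM8 8.07.

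In Mcm8 WT MEFs, fewer promoters held R-loop peaks where the HEK293 promoters of the same gene symbols held members alone than where they held R-loop MCM8 peaks. Genes that also had an R-loop MCM8 promoter peak were counted with those only. By definition these groups also differ in having a HEK293 S9.6 or RNH1 peak. Of 541 genes with a member, a mouse gene of the same symbol and no HEK293 S9.6 or RNH1 promoter peak, 61 (11.3%, 8.88% to 14.2%) had a promoter peak in the S9.6 list of Mcm8 WT MEFs. The share was 9.65% (6.95% to 13.2%) for genes with an IgG peak but no FLAG-MCM8 or S9.6 peak, 7.34% (6.80% to 7.92%) for genes with none of these, 26.1% (22.05% to 30.7%) for genes with a member and an S9.6 or RNH1 peak, and 37.5% (34.6% to 40.5%) for genes with an R-loop MCM8 peak. Genes with an S9.6 or RNH1 promoter peak but no FLAG-MCM8 peak had 21.4% (20.3% to 22.6%). In the Mcm8 knockout, shControl and Ddx5 knockdown lists these genes had 30.5%, 27.4% and 42.2%, and 58.9% in any of the 4 S9.6 lists. For the genes with members alone, the share was 16.3% (13.4% to 19.6%) in the Mcm8 knockout list, 16.1% (13.2% to 19.4%) in shControl, 26.8% (23.2% to 30.7%) in Ddx5 knockdown and 42.5% (38.4% to 46.7%) in any of these 4 lists, against 15.5%, 11.1%, 22.5% and 35.1% for genes with an IgG peak and 10.8%, 10.7%, 16.8% and 28.2% for genes with none. In the WT list the interval for members alone overlapped that for IgG and lay above that for genes with no peak. Over all 988 genes with a promoter member it was 18.5% (16.2% to 21.1%), and the MEF list without primary antibody held 1.11% of them. The part of promoter GC in these shares was not tested.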

How the data were processed

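The 9 CUT&Tag peak lists comprised 1 per library (4 HEK293, 5 MEF). The authors trimmed reads (Trimmomatic), aligned them with Bowtie2 to hg38 or mm10 and called peaks with MACS2, version 2.1.2 in the submitters' processing notes (the study's methods give another version). The study's methods state a fold above 2 and a p-value below 0.05 for significant HEK293 peaks. In the deposited lists the lowest −log10 p was 5.01 for FLAG-MCM8, and the lowest fold was 2.87 for FLAG-MCM8, 1.79 for S9.6 and 1.72 for RNH1, so the S9.6 lists were not cut at that fold. The MACS2 setting behind that −log10 p and the use of IgG as input are not given in the sources used here. For each peak the authors deposited a fold enrichment (a ratio), a −log10 p, a −log10 q, a score, which was not used, and the summit as an offset.

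Fragments at the summit and local background were solved from the deposited fold and −log10 p (to 0.001 in −log10 p, or 0.5 where it was above 250). Read totals were not used here. The lowest background over the shortest peak gives a relative depth of 8314 fragments per Mb for FLAG-MCM8, 10395 for S9.6, 11050 for RNH1 and 10923 for IgG. TSSs came from GENCODE 44, promoters by the peak midpoint, other places by the summit, and sequences from hg38. Shares have 95% Wilson intervals, differences Newcombe intervals. Overlap counting, fragment recovery and pattern search were tested on simulated data. Python 3.11.15, numpy 2.4.6, pandas 2.3.3, scipy 1.17.1 and pysam 0.24.0 were used.

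The members, gene lists and alternatives were chosen with earlier results of these data known. Named loci were the 10 members of highest −log10 q, the top 3 in each place, those at fixed genes or at listed genes, those at the edge of the rule, the densest bins and the 5 fragile-site genes with most members. Chromosomes 8 and 18 were left out of the printed sequences, and some loci that meet these rules are not reported here. FHIT, WWOX, PTPRN2, the exon-shaped peaks, the X bin, the genes named from the AP-1, cyclin, ribosomal, histone and HOX lists, and the printed CCNF, POLD3, CDK4 and GMNN sequences were chosen after their values were seen.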

Additional observations from a re-analysis of the deposited data

How the results depend on the processing

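Of 59 alternatives, 32 left a value within its 95% interval (counts within 1.5 times) and 27 moved it. A change of direction was not scored. The number of members fell from 10716 to 3619 at a −log10 q of at least 5, and otherwise ran from 9209 to 11500, with 10716 on all sequences. That q gave a promoter share of 16.5%, an intron share of 46.8%, a median fold of 5.45, a median GC of 51.7% and a G-quadruplex share of 6.44%, and a fold of at least 4 gave a median fold of 4.78. The promoter share was 13.1% with a gap under 1 kb counted as overlap, 15.5% with 50% of either peak shared, 26.9% with a TSS within 3 kb and 10.3% with protein-coding TSSs. The promoter difference was 41.5 and 42.3 points under those last 2 settings, and 38.8, 38.1 and 47.6 points in groups 1, 2 and 4 of 4 by −log10 p, from the weakest. Median GC was 51.5% with 50 bp and 49.9% with 200 bp on either side of the summit, 57.2% at promoters and 49.8% away from them, and the G-quadruplex share 2.88%, 11.1%, 12.8% and 4.81%; longer windows hold more letters to match. Genes with a promoter member numbered 1952 within 3 kb. The MEF share was 54.3% in any of the 4 S9.6 lists and 23% in shControl. No paired analysis was possible because each group held 1 library and no result came from a test; for the same reason no library could be left out. An S9.6 signal below the lowest listed peak, 11 fragments, was not detectable in these lists.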
